A study of Mus musculus with 11 samples.

Results

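The 10 receptor genes of 4 families of neuropeptides were followed through RNA-seq of mouse hippocampus: the neuropeptide Y receptors Npy1r, Npy2r and Npy5r, the tachykinin receptors Tacr1 and Tacr3, the somatostatin receptors Sstr1, Sstr2, Sstr3 and Sstr4, and the thyrotropin-releasing hormone receptor Trhr. They were picked by symbol, and all 10 had a row among the 24391 genes of the heterozygous table and the 24015 genes of the homozygous table. The mice were C57BL/6N carriers of a Cas9-made deletion of the 1b regulatory region of Scn1a, the gene of the sodium channel NaV1.1, or WT mice, and came from 1 line. Hippocampus of 1 hemisphere was taken at P32, which the labels call adult. In the heterozygous round, 4 1b+/- mice (HT in the labels, 3 male and 1 female, replicate 4) were compared with 3 male WT mice. In the homozygous round, 2 1b-/- mice (KO in the labels, replicate 1 male and replicate 2 female) were compared with 2 female WT mice. The rounds used different read types, so in each comparison mutants were set against the WT mice sequenced with them.

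All 10 genes encode G protein-coupled receptors, which pass the binding of a peptide on to G proteins inside the cell. Receptors for neuropeptide Y and somatostatin act mainly through Gi/o proteins, which lower cyclic AMP and open GIRK potassium channels, and are known in the hippocampus for damping glutamate release and excitability. Tachykinin and thyrotropin-releasing hormone receptors act mainly through Gq proteins and phospholipase C, and are mostly excitatory. Neuropeptide Y and somatostatin come largely from GABAergic interneurons, a cell class that depends on NaV1.1 to fire.

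In the mm9 assembly with its GENCODE annotation, the genes lie on 7 chromosomes. Npy1r (chr8:69221321-69230697, plus strand) and Npy5r (chr8:69203864-69211993, minus strand) are neighbours transcribed away from each other, with 9328 bases between their 5′ ends. Npy2r (chr3:82342305-82352008, minus strand), Tacr1 (chr6:82352328-82510097, plus strand) and Sstr4 (chr2:148221113-148226239, plus strand) are the members that passed the test in the 1b-/- comparison. Sstr2 (chr11:113480656-113487319, plus strand) overlaps Slc39a11 on the other strand. The strand setting of the counting is not given in the sources used here, so reads of Sstr2 and Slc39a11 may not be told apart. No annotated gene overlaps the other 9 members, which include Tacr3 (chr3:134491971-134597545, plus strand), Sstr1 (chr12:59312759-59315431, plus strand), Sstr3 (chr15:78367445-78374775, minus strand) and Trhr (chr15:44027681-44067458, plus strand).

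The sequence before the start of the 3 members that passed that test is shown because they did not move the same way. It comes from the RefSeq promoter table (GRCm38.p6), cut to the bases outside the GENCODE gene, and each stretch had 1 exact match on its chromosome in mm9. Npy2r lies at chr3:82352009-82352257 on the minus strand, Sstr4 at chr2:148220863-148221112 on the plus strand and Tacr1 at chr6:82352219-82352327 on the plus strand. Capitals mark a GC box (GGGCGG) in Npy2r and, in Tacr1, the half-site of the cAMP response element (TGACG) read from the other strand.
Npy2r: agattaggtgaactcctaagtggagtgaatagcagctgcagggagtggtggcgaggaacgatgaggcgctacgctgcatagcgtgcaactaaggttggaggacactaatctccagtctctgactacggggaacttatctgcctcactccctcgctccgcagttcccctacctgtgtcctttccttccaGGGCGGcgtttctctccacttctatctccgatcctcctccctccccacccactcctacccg
Sstr4: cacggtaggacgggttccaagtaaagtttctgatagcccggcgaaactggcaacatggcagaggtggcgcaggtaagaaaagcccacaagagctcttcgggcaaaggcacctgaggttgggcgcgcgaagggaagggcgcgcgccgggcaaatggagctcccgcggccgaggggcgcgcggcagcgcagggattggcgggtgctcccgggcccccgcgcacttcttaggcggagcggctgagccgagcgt
Tacr1: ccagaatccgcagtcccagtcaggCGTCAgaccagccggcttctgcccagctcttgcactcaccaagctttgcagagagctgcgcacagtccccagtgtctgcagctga

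The table held 8 of the 10 members, and Sstr1 and Trhr had no entry. Both strands of the 250 bases before each start were searched. GGGCGG was in 2 of the 8 genes (Npy2r and Sstr2) and in 32.7% of all 32851 promoter windows, and TGACG was in 4 of the 8 (Tacr1, Tacr3, Sstr2 and Sstr3) and in 17.8% of windows. The full cAMP response element TGACGTCA, which contains the half-site, was in Sstr2 and in 1.55% of windows, and TATAAA was in Tacr3 and in 12.4% of windows.

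Library totals ran from 20667122 to 36145161 counts. Scn1a was read as a check of the genotypes, and its groups overlapped in the heterozygous round but not in the homozygous round. Its level (CPM, counts per 1000000 counts of a library, scaled with TMM factors) was 113 to 171 in WT and 83.3 to 119 in 1b+/- mice, a mean of 72.0% of WT, and 134 and 173 in WT against 26.3 and 16.7 in 1b-/- mice, 14.0% of WT. The adjusted p was 0.303 and 0.0211 by edgeR's quasi-likelihood test.

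Both WT libraries of the homozygous round stood apart from the other 9. C1ql2 and Prox1, markers of dentate granule cells, were at 1.85 and 1.78 CPM and at 15.4 and 14.9 CPM in these WT mice, against 71.7 and 78.9 CPM and 49.1 and 56.0 CPM in 1b-/- mice. The CA1 markers Gpr161 and Fibcd1 and the CA3 markers Iyd and Cpne4 were also higher in 1b-/- mice, by log2 fold changes of 3.04, 3.46, 4.10 and 1.77. Of 10 dentate markers 3 passed, all higher, and 2 had negative values (Calb1 at -0.50 and Pdzd2 at -0.78). Of 6 CA1 markers 2 passed and 0 had negative values, and of 6 CA3 markers 2 passed and 1 had a negative value. Over all genes 3.58% passed. All 12 striatum markers were lower in 1b-/- than in WT mice and 9 passed the test. Their summed level was 3343 to 8167 CPM in these WT mice, 240 to 335 CPM in 1b-/- mice and 192 to 408 CPM across the heterozygous round. Drd1a and Rxrg, the striatum markers with the smallest p, fell by 4.29 and 4.01 on the log2 scale. All 6 cholinergic basal forebrain markers were lower too, 4 of them past the test, with Slc5a7 at -4.45 and Chat at -7.06, and summed to 44.1 to 104 CPM in WT and 1.79 to 2.82 CPM in 1b-/- mice. Genotype and this difference in marker levels have the same grouping in the homozygous round and cannot be told apart, so every value of the 1b-/- comparison stands beside it. All 11 libraries are labelled hippocampus. In these 2 WT libraries C1ql2 and the CA3 marker Iyd (0.316 and 0.468 CPM) were near 0. Other markers of those lists were not, such as Calb1 at 140 and 131 CPM and Kcnq5 at 109 and 122 CPM. Dentate markers summed to 333 to 340 CPM there and to 449 to 467 CPM in 1b-/- mice. Calb1, Pdzd2 (124 and 84.2 CPM) and Stxbp6 (45.6 and 85.0 CPM) gave most of that sum in the WT libraries. Some hippocampal markers were thus near 0 there and others were not. How far the label holds for these 2 libraries was not tested.

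**Figure D1:**
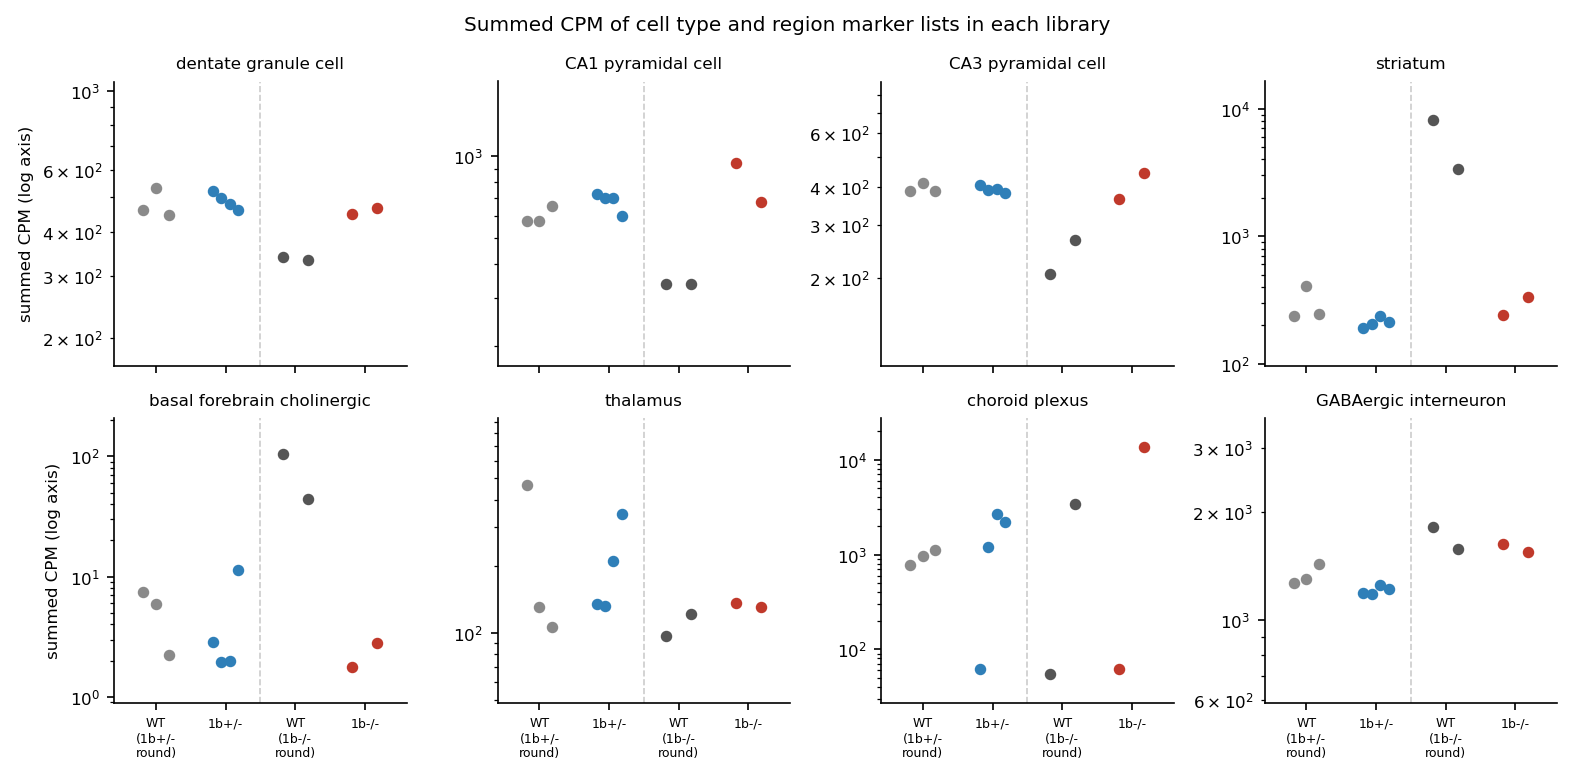
Summed CPM (log axis) of 8 marker lists in each library, with 1 point per library and groups along the x axis; the dashed line separates the rounds, which were scaled separately. The WT libraries of the homozygous round lie at 3343 to 8167 CPM for striatum markers, where all other libraries lie at 192 to 408 CPM, and below all others for dentate granule cell, CA1 and CA3 markers.

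Other lists varied between single mice. Thalamus markers summed to 107 to 467 CPM in WT and 133 to 346 CPM in 1b+/- mice, the highest being WT replicate 1 and 1b+/- replicate 4. Choroid plexus markers ran from 61.7 to 2692 CPM in 1b+/- mice, from 54.6 to 3451 CPM in WT and from 62.1 to 13745 CPM in 1b-/- mice of the homozygous round.

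The heterozygous comparison asks which of the receptors differ when 1 copy of the 1b region is missing. Tacr1 and Trhr were each below the level of every WT mouse in all 4 1b+/- mice, at 44.9% and 46.8% of the WT mean, but no member passed the test after adjustment. With edgeR's quasi-likelihood test and Benjamini-Hochberg adjustment over all genes, 0 of the 10 members and 0 of the 14630 genes (0%) had an adjusted p under 0.05, and 2 members (Tacr1 and Trhr) did with either edgeR's likelihood ratio test, beside 1.31% of all genes, or DESeq2, beside 1.74%. At an unadjusted p under 0.05 there were 3 members (Tacr1, Trhr and Sstr1) beside 11.3% of all genes. The groups did not overlap in these 3 members, beside 10.9% of all genes. The median log2 fold change was -0.18 over the members and 0.00073 over all genes tested. In bulk tissue, fewer cells of a type and less RNA per cell cannot be told apart. Hippocampal marker lists moved as well, with 0 genes past adjustment. Of 6 CA1 markers 0 had negative values and 3 were higher at an unadjusted p under 0.05. Of 10 dentate markers 2 had negative values, with 4 higher and 1 lower at that p. Of 6 CA3 markers 3 had negative values and 0 reached that p. Over all genes the share was 11.3%. The part of these markers in the Tacr1 and Trhr values was not tested.

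In the homozygous comparison, where 1b-/- mice lack both copies, Npy2r and Sstr4 were higher and Tacr1 was lower in 1b-/- than in WT mice. Genotype and the marker difference of the WT libraries described above cannot be told apart here. Those 3 of the 10 members passed the test, beside 3.58% of the 14838 genes tested: 2 were among the 2.06% of genes that were higher and 1 among the 1.52% that were lower. At an unadjusted p under 0.05 there were 6 members beside 26.4% of all genes, and the groups did not overlap in 8 members beside 59.7% of all genes. The median log2 fold change was 0.60 over the members and -0.0013 over all genes tested. Without WT replicate 1, the log2 fold changes were 3.09 for Npy2r, 1.52 for Sstr4 and -2.60 for Tacr1, while 0 of the members and 0 of all genes passed, and the adjusted p of each of the 3 was 0.101, the highest over the 12 alternatives, whose lowest were 5.3e-32 for Npy2r, 1.4e-12 for Tacr1 and 3.1e-08 for Sstr4. Without WT replicate 2, they were 2.99, 1.85 and -3.59. Npy2r and Tacr1 passed and Sstr4 had an adjusted p of 0.0522. Both fits set 1 WT mouse against 2 1b-/- mice, and the lone WT mouse is assumed to vary like the 1b-/- pair. Leaving out both WT mice leaves no comparison.

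**Figure D2:**
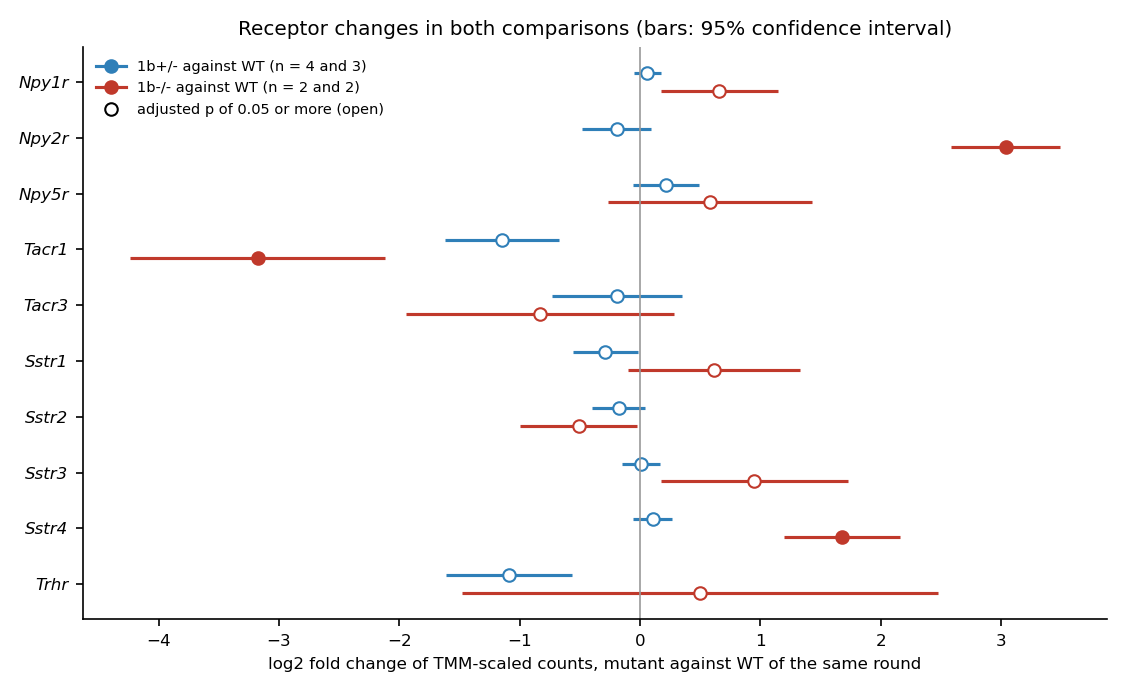
Log2 fold change (x axis) of the 10 receptor genes in 1b+/- mice (blue, 4 against 3) and 1b-/- mice (red, 2 against 2), each against WT of the same round, with 95% confidence intervals; filled points have an adjusted p under 0.05. The 3 filled points are Npy2r at 3.04, Sstr4 at 1.68 and Tacr1 at -3.18, all in 1b-/- mice.

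Npy2r encodes the Y2 receptor, which sits largely on axon terminals and limits transmitter release. In the homozygous round its counts were 121 and 109 in WT and 1375 and 1527 in 1b-/- mice, or 5.46 and 5.10 CPM against 39.0 and 47.8 CPM. The 1b-/- mean was 8.23 times the WT mean, with a log2 fold change of 3.04 (SE 0.18, 95% interval 2.59 to 3.49, adjusted p = 0.0190 by edgeR's quasi-likelihood test). Among mice of the heterozygous round Npy2r was at 37.5, 51.9 and 56.6 CPM in WT and at 44.0, 45.7, 42.8 and 37.2 CPM in 1b+/- mice, and these groups overlapped (log2 fold change -0.20, SE 0.13, adjusted p = 0.606). Without WT replicate 1 and 1b+/- replicate 4, which had the highest thalamus markers, the value was -0.30 with an adjusted p of 0.0422, where the 16 alternatives ranged from 0.0422 to 0.9999. Scaled over all 11 libraries, the 1b-/- mice lay at 38.5 and 46.5 CPM, beside 38.5 to 58.1 CPM in WT mice of the heterozygous round and 5.03 to 5.36 CPM in WT mice of their own round. Of the 4 groups, WT mice of the homozygous round were thus the lowest, and no test was made across rounds, which differ in read type.

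Npy1r encodes the Y1 receptor, found mainly on dendrites and cell bodies. Its level was 15.4 and 19.9 CPM in WT and 30.1 and 25.6 CPM in 1b-/- mice, without overlap, and the log2 fold change of 0.66 (SE 0.19) did not pass the test (adjusted p = 0.115). The heterozygous round had it at 31.0, 31.5 and 33.0 CPM in WT and 34.4, 32.7, 31.5 and 34.1 CPM in 1b+/- mice, with a 95% interval of the log2 fold change from -0.05 to 0.17. The WT mice of the homozygous round were again the lowest of the 4 groups, at 15.2 and 19.6 CPM on the scale over all 11 libraries, where the other 9 mice lay at 24.9 CPM or above.

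Npy5r, the gene of the Y5 receptor and the neighbour of Npy1r, was at 2.48 and 4.07 CPM in WT and 4.77 and 5.01 CPM in 1b-/- mice. Its log2 fold change of 0.58 (SE 0.33) did not pass the test (adjusted p = 0.326). Heterozygous-round levels were 4.63 to 5.83 CPM in 3 WT mice and 5.21 to 6.41 CPM in 4 1b+/- mice, with overlap. Npy1r and Npy5r both had positive log2 fold changes in both comparisons, and neither gene passed in either of them.

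Tacr1 encodes the NK1 receptor, whose main ligand is substance P. Its counts in the heterozygous round were 138, 198 and 135 in WT and 55, 70, 65 and 108 in 1b+/- mice, which gave 4.88, 7.60 and 5.95 CPM against 2.16, 2.57, 2.54 and 3.76 CPM. Each 1b+/- mouse was below each WT mouse. The log2 fold change was -1.15 (SE 0.21, 95% interval -1.62 to -0.67), with an adjusted p of 0.0927 by edgeR's quasi-likelihood test and 0.0286 by a two-sided exact permutation test of the mean, the smallest p that 35 arrangements allow. Among the males alone, without 1b+/- replicate 4, the value was -1.34 with an adjusted p of 0.0750. Over 16 alternatives the log2 fold change ran from -1.48 to -0.96 and the adjusted p from 0.00025 to 0.697; without WT replicate 1 it was 0.0171. In the homozygous round Tacr1 was at 38.5 and 19.5 CPM in WT and 2.53 and 3.88 CPM in 1b-/- mice, so that it fell by 3.18 on the log2 scale (SE 0.42, adjusted p = 0.0307). On the scale over all 11 libraries the 1b-/- mice, at 2.49 and 3.77 CPM, lay among the 1b+/- mice at 2.22 to 3.86 CPM, and the WT mice of the homozygous round, at 37.9 and 19.2 CPM, lay far above WT mice of the heterozygous round at 5.01 to 7.81 CPM.

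Striatum markers moved with Tacr1 in both comparisons. All 11 that were tested were lower in 1b+/- than in WT mice, 6 of them at an unadjusted p under 0.05 beside 11.3% of all genes and 0 after adjustment by edgeR's quasi-likelihood test. Their summed level was 235, 408 and 245 CPM in WT and 192, 206, 237 and 213 CPM in 1b+/- mice, with overlap. WT replicate 2, at 408 CPM, also had the highest Tacr1 level of that round, and the other WT mice lay near the highest 1b+/- mouse. None of the 12 markers in the table was at 0 in every library of a group. Their part in the Tacr1 values was not tested.

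Tacr3, which encodes the NK3 receptor for neurokinin B, overlapped between genotypes in both rounds. It was at 4.92, 4.68 and 9.65 CPM in WT and 4.68 to 5.98 CPM in 4 1b+/- mice, and at 7.85 and 4.30 CPM in WT against 4.37 and 2.44 CPM in 1b-/- mice. The log2 fold changes were -0.19 (SE 0.24, adjusted p = 0.803) and -0.83 (SE 0.44, adjusted p = 0.291). Without WT replicate 3, whose level was the highest of the heterozygous round, the first was 0.22.

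**Figure D3:**
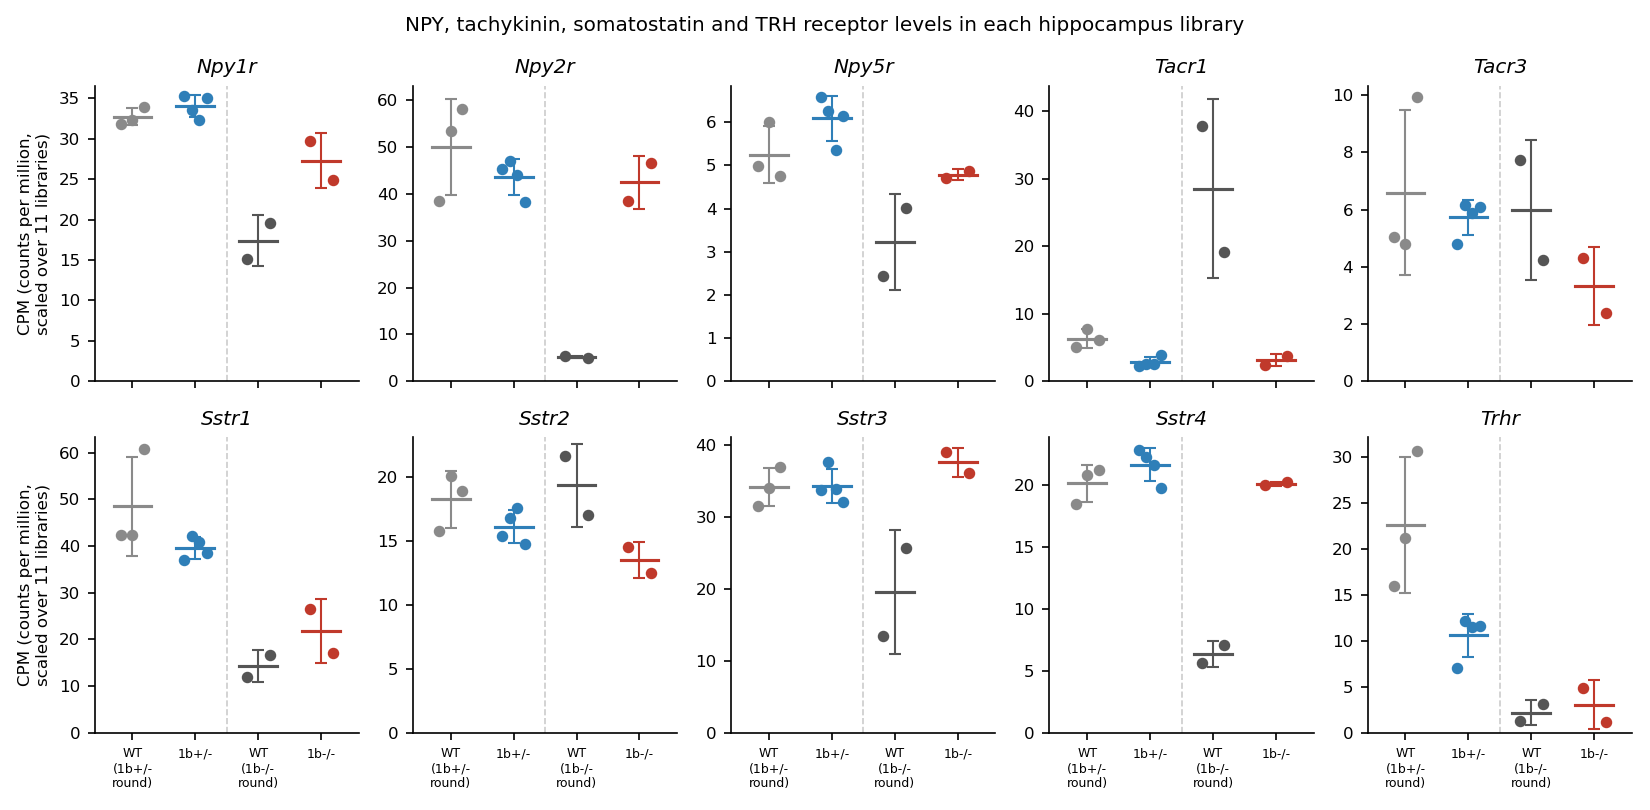
CPM of the 10 receptor genes in each library (y axis, scaled over all 11 libraries, different in each panel), with 1 point per library, a horizontal line at the group mean and bars of 1 SD. Npy2r and Sstr4 are lowest in WT mice of the homozygous round, at 5.03 to 5.36 and 5.59 to 7.06 CPM, and Tacr1 is highest there, at 19.2 and 37.9 CPM.

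Sstr4, one of the Gi/o-coupled somatostatin receptors and known from CA1 pyramidal neurons, was at 5.69 and 7.16 CPM in WT and 20.3 and 20.8 CPM in 1b-/- mice. It rose by 1.68 on the log2 scale (SE 0.19, 95% interval 1.20 to 2.16, adjusted p = 0.0252 by edgeR's quasi-likelihood test). Among mice of the heterozygous round it was at 17.9, 20.2 and 20.6 CPM in WT and 22.2, 21.7, 21.1 and 19.2 CPM in 1b+/- mice, and the 95% interval of the log2 fold change ran from -0.06 to 0.27. The 1b-/- mice (20.0 and 20.2 CPM over all 11 libraries) were within the range of WT mice of the heterozygous round (18.4 to 21.2 CPM).

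Sstr3 encodes the receptor that neurons carry on their primary cilium. It was at 13.7 and 26.1 CPM in WT and 39.6 and 37.2 CPM in 1b-/- mice, a log2 fold change of 0.95 (SE 0.31, adjusted p = 0.137). The WT mice differed from each other by more than the lower 1b-/- mouse did from the higher WT mouse. In the heterozygous round the means were 33.2 ± 2.62 CPM (SD, n = 3) in WT and 33.4 ± 2.27 CPM (SD, n = 4) in 1b+/- mice, with a 95% interval from -0.15 to 0.17 on the log2 scale.

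Sstr1 and Sstr2 also couple to Gi/o proteins, and neither passed the test. Sstr1 was at 12.1 and 16.9 CPM in WT and 27.0 and 17.5 CPM in 1b-/- mice (log2 fold change 0.62, SE 0.28, adjusted p = 0.239). In the heterozygous round it was at 41.2, 41.3 and 59.2 CPM in WT and 36.0, 41.0, 39.9 and 37.5 CPM in 1b+/- mice, where the highest 1b+/- mouse lay just under the lowest WT mouse. That difference had a log2 fold change of -0.29 (SE 0.12, adjusted p = 0.409) and an exact permutation p of 0.0286, which was 0.0571 for CPM without TMM factors. Without WT replicate 3, the highest mouse, the log2 fold change was -0.097 (adjusted p = 0.804 by edgeR's quasi-likelihood test). Sstr2 was at 22.0 and 17.3 CPM in WT and 14.7 and 12.9 CPM in 1b-/- mice (log2 fold change -0.51, SE 0.19, adjusted p = 0.176), and at 15.4 to 19.5 CPM in WT and 14.4 to 17.1 CPM in 1b+/- mice (log2 fold change -0.18, SE 0.10, adjusted p = 0.533). Of the 4 somatostatin receptors, 3 had positive and 1 negative log2 fold changes in the homozygous round, with a median of 0.78.

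Trhr encodes the Gq-coupled receptor for thyrotropin-releasing hormone. Its counts in the heterozygous round were 440, 539 and 677 in WT and 174, 324, 286 and 325 in 1b+/- mice. These gave 15.6, 20.7 and 29.8 CPM in WT and 6.85, 11.9, 11.2 and 11.3 CPM in 1b+/- mice, so that each 1b+/- mouse was below each WT mouse. The log2 fold change was -1.09 (SE 0.23, 95% interval -1.61 to -0.56, adjusted p = 0.146 by edgeR's quasi-likelihood test), with an exact permutation p of 0.0286. Without WT replicate 1 the adjusted p was 0.0157, where the 16 alternatives ranged from 0.0014 to 0.972. In the homozygous round Trhr was low in every mouse, at 1.26 and 3.18 CPM in WT and 4.996 and 1.25 CPM in 1b-/- mice, and the groups overlapped. The log2 fold change of 0.50 (SE 0.78, 95% interval -1.48 to 2.47) turned to -0.82 without 1b-/- replicate 1, the only male of that round, and to -0.02 without WT replicate 1.

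The peptide precursors were read from the same libraries. Of 9 precursor genes, 6 were tested, all 6 had negative log2 fold changes in the heterozygous comparison (4 at an unadjusted p under 0.05 beside 11.3% of all genes, 0 after adjustment), and 4 had negative ones in the homozygous comparison, where Tac1 passed. Tac1 encodes substance P and neurokinin A, the ligands of Tacr1 and its relatives. It was at 8.03, 12.2 and 11.1 CPM in WT and 4.92, 5.46, 4.82 and 6.58 CPM in 1b+/- mice, with no overlap (log2 fold change -0.93, SE 0.16, adjusted p = 0.0777). In the homozygous round it was at 127 and 78.8 CPM in WT and 6.05 and 3.57 CPM in 1b-/- mice, and it fell by 4.41 on the log2 scale (SE 0.37, adjusted p = 0.0207). Tac1 is itself abundant in striatal neurons, and the striatum markers above moved with it.

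Trh, the precursor of thyrotropin-releasing hormone, had the smallest p of the precursors in the heterozygous round. It was at 13.2, 13.1 and 22.7 CPM in WT and 0.590, 0.257, 1.96 and 1.92 CPM in 1b+/- mice, on 340 to 515 counts against 7 to 55. The mean was 7.24% of WT, with a log2 fold change of -3.77 (SE 0.45) that lay just outside the threshold (adjusted p = 0.0532). In the homozygous round it was at 4.11 and 4.63 CPM in WT and 0.483 and 1.97 CPM in 1b-/- mice (log2 fold change -1.83, SE 0.67, adjusted p = 0.169). Hypothalamus markers summed to 2.16 to 4.15 CPM in WT and 1.69 to 2.44 CPM in 1b+/- mice, and to 11.7 to 12.9 CPM in WT and 3.49 to 4.51 CPM in 1b-/- mice. Of these 9 markers, 3 were tested in the heterozygous round and all 3 were lower, and their part in the Trh values was not tested.

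Npy and Sst, the precursors of neuropeptide Y and somatostatin, did not pass in either round. Npy was at 20.6, 28.4 and 23.8 CPM in WT and 18.5 to 22.0 CPM in 4 1b+/- mice (log2 fold change -0.26, SE 0.11, adjusted p = 0.393), and at 148 and 125 CPM in WT and 72.4 and 146 CPM in 1b-/- mice (-0.32, SE 0.33). Sst was at 82.9, 92.7 and 119 CPM in WT and 82.2 to 89.9 CPM in 1b+/- mice (-0.21, SE 0.11, adjusted p = 0.497), and at 232 and 175 CPM in WT and 278 and 204 CPM in 1b-/- mice (0.24, SE 0.22). Both were higher in the homozygous than in the heterozygous round in WT and mutant mice alike, between rounds of different read type. Cort, for cortistatin, which binds somatostatin receptors, was at 2.15 to 2.73 CPM in WT and 1.61 to 2.05 CPM in 1b+/- mice (-0.38, SE 0.17, adjusted p = 0.426). Tac2, for neurokinin B, the ligand of Tacr3, was at 1.85 and 6.27 CPM in WT and 8.35 and 13.7 CPM in 1b-/- mice (1.44, SE 0.59, adjusted p = 0.202). Tac4 had at most 5 counts in a library and Pyy and Ppy had 0 in all 11.

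**Figure D4:**
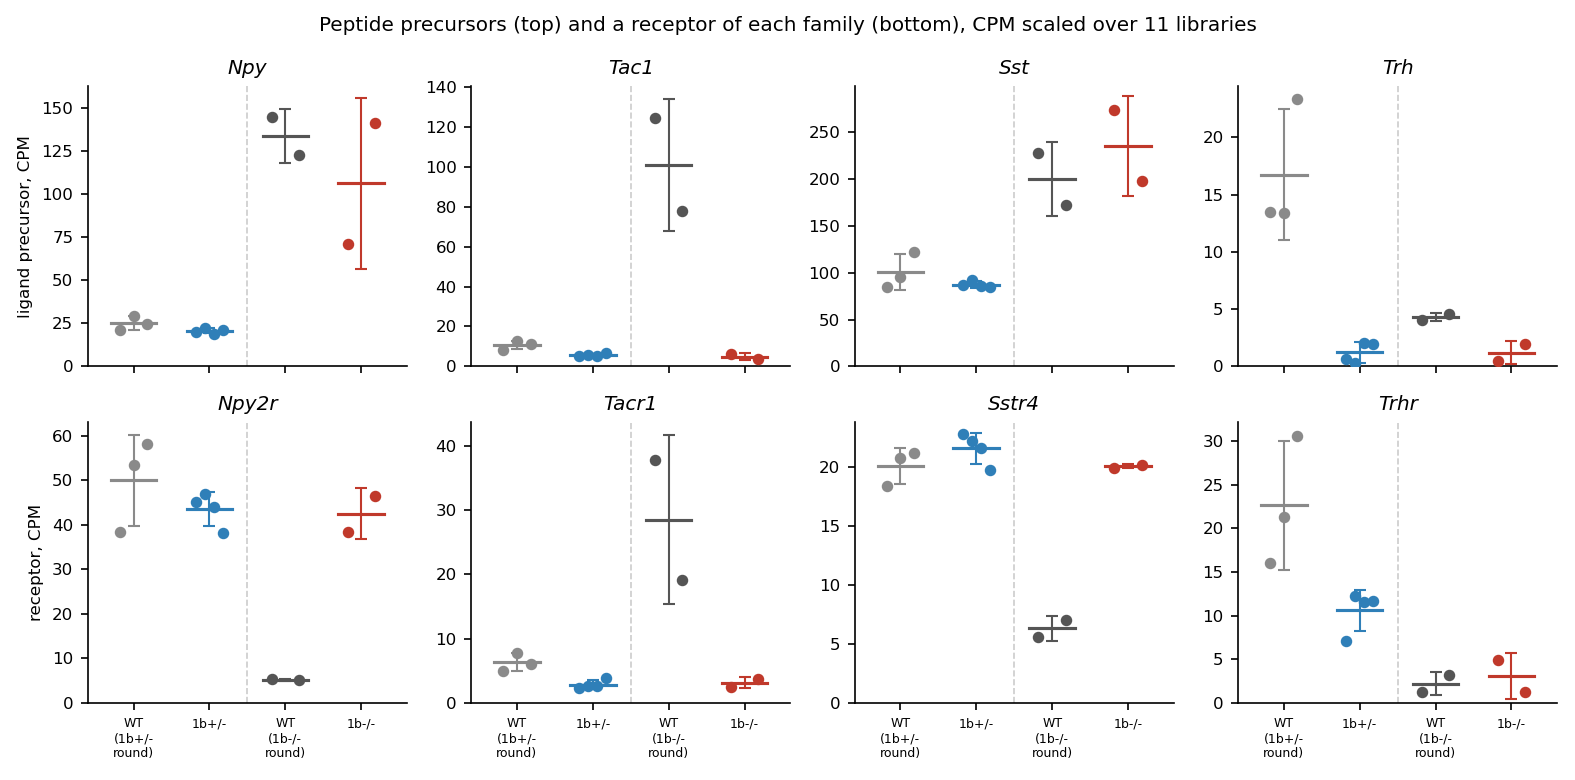
CPM (y axis, scaled over all 11 libraries) of 4 peptide precursors in the top row and 1 receptor of each family in the bottom row, with 1 point per library, lines at group means and bars of 1 SD. Tac1 and Tacr1 are both highest in WT mice of the homozygous round (77.7 to 124 and 19.2 to 37.9 CPM), and Trh and Trhr are both highest in WT mice of the heterozygous round (13.4 to 23.3 and 15.98 to 30.7 CPM).

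The remaining receptors of these families were near the floor. Npy4r, Npy6r, Tacr2 and Sstr5 stayed under 1 CPM in all 11 libraries and were not tested. Trhr2, the second thyrotropin-releasing hormone receptor of mice, was at 2.17 and 1.68 CPM in WT and 0.0852 and 0.376 CPM in 1b-/- mice, on 48, 36, 3 and 12 counts, and did not pass (log2 fold change -3.06, SE 0.79, adjusted p = 0.0954).

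Genes that carry the signal inside the cell were counted by list, and in the heterozygous comparison 0 of 40 tested passed by edgeR's quasi-likelihood test, with 6 at an unadjusted p under 0.05 beside 11.3% of all genes. In the homozygous comparison 0 of 8 Gi/o and Gq alpha subunits passed (median log2 fold change 0.30) and 0 of 4 GIRK channel subunits (median 0.35), with 4 and 2 genes at an unadjusted p under 0.05, all higher, beside 26.4% of all genes. Of 8 adenylyl cyclases, Adcy5, a main cyclase of striatal neurons, fell by 2.48 on the log2 scale, from 993 and 429 CPM in WT to 124 and 132 CPM in 1b-/- mice. The other 7 did not pass, and the median of the 8 was 0.29. Of 7 phospholipase C beta and IP3 receptor genes, Itpr1, which releases calcium from internal stores, fell from 792 and 758 to 347 and 289 CPM (log2 fold change -1.28, SE 0.16, adjusted p = 0.0290). The median of these 7 was -0.50.

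Of 14 receptor kinases, arrestins and RGS proteins, 3 passed, beside 3.58% of all genes, and the median was -0.20. Rgs4, which speeds the switching-off of Gi/o and Gq proteins, fell from 1097 and 864 to 214 and 197 CPM (-2.25, SE 0.18, adjusted p = 0.0204). Grk5, a kinase of active receptors, fell from 21.8 and 24.3 to 10.4 and 10.6 CPM (-1.14, SE 0.16, adjusted p = 0.0333). Rgs14, abundant in CA2 pyramidal cells, rose from 59.6 and 40.6 to 130 and 197 CPM (1.70, SE 0.28, adjusted p = 0.0469). Of 10 peptide-degrading enzymes, Mme, the neprilysin that cleaves substance P and somatostatin, fell from 50.1 and 33.8 to 7.95 and 5.39 CPM (-2.65, SE 0.29, adjusted p = 0.0251), and the median was 0.26. The striatum, dentate and CA1 markers that separate the WT libraries of this round moved with all of these, and their part was not tested.

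Interneuron markers were set beside the receptors because interneurons release several of the ligands. In the heterozygous comparison 12 of 14 had negative log2 fold changes, 7 of the 14 at an unadjusted p under 0.05 beside 11.3% of all genes and 0 after adjustment by edgeR's quasi-likelihood test, with a median of -0.23. Their summed level was 1269 to 1434 CPM in WT and 1179 to 1248 CPM in 1b+/- mice. In the homozygous comparison 8 of 14 had negative values, with a median of -0.21, and 4 passed, beside 3.58% of all genes. Gad2, an enzyme of GABA synthesis, fell by 1.03 on the log2 scale, and Htr3a (2.39), Cck (1.38) and Nos1 (1.08) rose. Gad1 (-0.69, adjusted p = 0.0664), Slc32a1 (-0.84, adjusted p = 0.196) and Pvalb (-1.07, adjusted p = 0.0815) did not pass by edgeR's quasi-likelihood test. The summed level there was 1579 to 1820 CPM in WT and 1543 to 1625 CPM in 1b-/- mice.

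In the homozygous comparison 6 of 8 neocortex markers had negative log2 fold changes (median -0.65). Foxp2 and Rorb passed (-4.10 and -1.42), beside 3.58% of all genes. Of 6 thalamus markers 3 had negative values and the median was -0.0068. Among them Lhx9 was higher (4.47) and Prkcd did not pass (0.82, adjusted p = 0.178). Of 5 hypothalamus markers tested 4 had negative values and 0 passed by edgeR's quasi-likelihood test. At an unadjusted p under 0.05 there were 2 (Nkx2-1 at -2.26 and Avp at -4.89), beside 26.4% of all genes. All 8 choroid plexus markers had positive values and 0 passed, with 0 at an unadjusted p under 0.05 and Aqp1 at 1.85 and Ttr at 2.03.

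Across all 11 libraries, with the round as a term and the number of deleted 1b alleles (0, 1 or 2) as a number, 5 members passed beside 11.1% of the 14905 genes tested. Tacr1 fell by 1.47 per allele on the log2 scale (SE 0.16, adjusted p = 0.00399), Sstr4 rose by 0.60 (SE 0.12, adjusted p = 0.0170), Npy1r rose by 0.24 (SE 0.06, adjusted p = 0.0340), Sstr2 fell by 0.23 (SE 0.06, adjusted p = 0.0417) and Npy2r rose by 0.92 (SE 0.27, adjusted p = 0.0488). The 1b-/- mice and their WT mice enter this fit too. For Npy2r, Npy1r and Sstr4 the log2 fold change was -0.20, 0.06 and 0.10 in 1b+/- mice and 3.04, 0.66 and 1.68 in 1b-/- mice. Their slopes therefore come mainly from the homozygous round and do not show a step with each allele. For Tacr1 and Sstr2 the values were -1.15 and -0.18 in 1b+/- mice and -3.18 and -0.51 in 1b-/- mice. On the scale over all 11 libraries, mean Tacr1 was 2.83 CPM in 1b+/- and 3.13 CPM in 1b-/- mice. The WT mice of their rounds had means of 6.31 and 28.5 CPM. Tacr1 passed in all 18 alternatives, Npy1r and Sstr4 each in 14, Sstr2 in 9 and Npy2r in 8. Each alternative kept a WT library of the homozygous round, so none could separate its marker difference from the number of alleles.

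Whether the 1b-/- and 1b+/- effects differed from each other was tested in 1 fit over the 11 libraries. It found 6 members beside 27.3% of all genes. The 1b-/- effect minus the 1b+/- effect was 3.23 (SE 0.24) for Npy2r, 1.57 (SE 0.16) for Sstr4 and -2.04 (SE 0.45) for Tacr1, and each of these passed in all 18 alternatives. It was 0.59 (SE 0.15) for Npy1r, 0.90 (SE 0.29) for Sstr1 and 0.93 (SE 0.27) for Sstr3. For Trhr it was 1.59 (SE 0.73, adjusted p = 0.131). Each effect was measured against the WT mice of its own round.

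Levels of the receptors can be set against each other only per length, so CPM was divided by the kilobases of annotated exon. In WT mice of the heterozygous round Sstr1 was highest at 23.1 CPM per kilobase, followed by Npy2r at 14.5, Npy1r at 10.6, Sstr4 at 8.93, Sstr2 at 8.51, Sstr3 at 8.46, Trhr at 5.54, Npy5r at 2.21, Tacr3 at 1.70 and Tacr1 at 0.949. The neighbours Sstr4 and Sstr2, Sstr2 and Sstr3, and Npy5r and Tacr3 overlapped between libraries. In 1b+/- mice Sstr1 was again highest, at 18.9, and Tacr1 lowest, at 0.426, and Trhr at 2.59 had moved next to Npy5r at 2.56, with overlapping libraries. In 1b-/- mice the order began with Npy2r at 12.9 and Sstr1 at 10.9 and ended with Trhr at 0.786 and Tacr1 at 0.495, and both pairs overlapped between libraries. In their WT mice Sstr2 was highest at 9.41, above both libraries of the next gene. Tacr1 at 4.48 was the fifth and overlapped its neighbours Sstr3 and Sstr4, and Npy2r at 1.57 was the eighth and overlapped its neighbours Tacr3 and Npy5r.

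**Figure D5:**
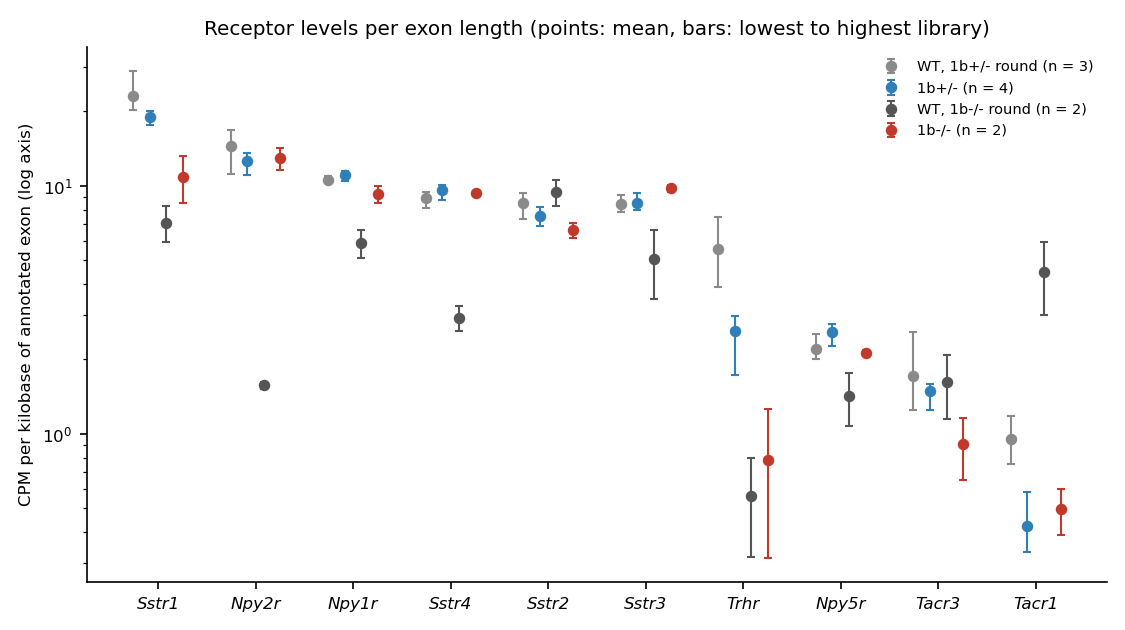
CPM per kilobase of annotated exon (y axis, log scale) of the 10 receptor genes, ordered by their level in WT mice of the heterozygous round, as group means with bars from the lowest to the highest library. WT mice of the homozygous round lie apart from the other groups for Npy2r (1.57 against 12.6 to 14.5), Sstr4 (2.93 against 8.93 to 9.59) and Tacr1 (4.48 against 0.426 to 0.949).

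For the 3 members that passed in the homozygous round, the genes with the most similar profile over the 11 libraries were found among 14150 genes tested in both rounds, as the smallest root mean square difference of log2 CPM centred on the WT mean of each round. For Npy2r these were Grp (0.15), Pde11a (0.22) and Nkd2 (0.22), whose own log2 fold changes in 1b-/- mice were 2.94, 3.64 and 2.74. Next to Tacr1 stood Dach1 (0.28), Oprk1 (0.39) and Coch (0.40), with log2 fold changes of -3.60, -3.47 and -3.74 in 1b-/- mice and -1.19, -0.52 and -0.71 in 1b+/- mice. Sstr4 was nearest to Zbtb18 (0.050), Nell2 (0.056) and Syna (0.075), with 1.64, 1.63 and 1.80 in 1b-/- mice. All 3 distances of Sstr4 were smaller than any of Npy2r or Tacr1. The genes were picked on profiles that include the 1b-/- mice, so their similar log2 fold changes follow from the choice and are no separate result.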

How the data were processed

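Per gene, the authors deposited raw counts. They used STAR 2.7.2 for alignment to mm9 and featureCounts for counting, with an annotation version and strand setting not given in the sources used here. Dates stand in place of 27 symbols in each table, and those rows were left out where the tables were joined. Groups followed the genotype labels. Columns were matched to samples by library name, although the labels of each round name the other round's table. No label ties mice to a litter, so p-values measure the spread between these samples. Tests used edgeR 4.0.16 in R 4.3.3 on genes reaching 1 CPM in any library (TMM factors, estimateDisp, glmQLFit, glmQLFTest, Benjamini-Hochberg adjustment over all genes, threshold 0.05). Genotype was the only term within a round. All 11 libraries entered the test per allele and that of the difference between genotypes. SEs were derived from the log2 fold change and its F statistic. Exact permutation tests of mean CPM were two-sided on the absolute difference, and 2 against 2 mice cannot give a p below 0.333. Profiles used a pseudocount of 0.5 CPM. The code was tested on simulated data.

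The members and gene lists were chosen with earlier results of these data known. The members, Scn1a, the precursors, pathway genes past the threshold (at most 4 per list and comparison), 2 genes from each marker list (smallest p in the homozygous round) and the 3 most similar profiles were named by rule. Trhr2, the untested receptors, Slc39a11, Gad1, Gad2, Slc32a1, Pvalb, Cck, Calb1, Pdzd2, Dsp, Lct, Stxbp6 and Kcnq5 were named after their values were seen. Alternatives were the likelihood ratio test, DESeq2 1.42.0, other scalings (RLE, upper quartile, none for CPM), other filters (filterByExpr or none), a term for sex, 1 fit over 11 libraries and each library left out. Leaving out WT replicate 1 and 1b+/- replicate 4 together was chosen after seeing the data. At these depths (20667122 counts or more), edgeR's common dispersion gave variation between mice of 9.13% for heterozygous-round and 22.9% for homozygous-round libraries.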

Additional observations from a re-analysis of the deposited data

Results flagged for a closer look

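In the 4 1b+/- mice, Trhr was at 6.85 CPM in replicate 1 and 11.2 to 11.9 CPM in the other 3, and the gap took up 0.864 of the group's whole range, above Dixon's 95% critical value. It was the only one of the 10 members with such a mouse in that group. Without that mouse the log2 fold change of Trhr was -0.94.

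For 6 members, beside 27.3% of all genes, the changes against WT differed between 1b-/- and 1b+/- mice by a test of the difference itself. The 1b-/- effect minus the 1b+/- effect was 3.23 on the log2 scale for Npy2r (adjusted p = 5.9e-05 by edgeR's quasi-likelihood test), 1.57 for Sstr4 (adjusted p = 0.00018), -2.04 for Tacr1 (adjusted p = 0.0086), 0.59 for Npy1r (adjusted p = 0.0164), 0.93 for Sstr3 (adjusted p = 0.0285) and 0.90 for Sstr1 (adjusted p = 0.0440). These differences rest on both WT groups. The WT libraries of the homozygous round had high striatum and low dentate, CA1 and CA3 markers. Genotype and this marker difference cannot be told apart in that round, and the part of these markers in these values was not tested.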

How the results depend on the processing

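Members past the threshold numbered 0 in 1b+/- mice. There were 2 with the likelihood ratio test, 2 with DESeq2 and 3 (Tacr1, Trhr and Npy2r) without WT replicate 1 and 1b+/- replicate 4 together. Of all genes, 191, 245 and 408 passed in those settings. Members past it numbered 3 in 1b-/- mice, beside 531 of all genes, and 6 with all 11 libraries in 1 fit, beside 5541. For the difference between genotypes they numbered 6, beside 4071 of all genes, and 3 with sex as a covariate. Leaving out 1 library at a time gave 0 to 2 members in 1b+/- mice, 0 to 3 in 1b-/- mice, 1 to 6 per allele and 3 to 7 for the difference. The 0 in 1b-/- mice came without WT replicate 1, and the 2 in 1b+/- mice without WT replicate 1. Per allele the count was 3 without 1b+/- replicate 1 or 2 and 1 without any library of the homozygous round, and the difference had 3 without 1b-/- replicate 1. Directions turned for Sstr3 in 1b+/- mice (-0.046 without WT replicate 1, -0.039 without 1b+/- replicate 2, up to 0.067 over single libraries left out, and -0.014 without WT replicate 1 and 1b+/- replicate 4), Tacr3 in 1b+/- mice (0.22 without WT replicate 3, range -0.37 to 0.22), Trhr in 1b-/- mice (-0.82 with sex as a covariate, -0.82 without 1b-/- replicate 1 and -0.020 without WT replicate 1, range -0.82 to 1.30) and Sstr1 per allele (-0.011 without WT replicate 1 of the homozygous round and -0.041 without 1b-/- replicate 1, range -0.041 to 0.20), and none of these values passed a test. All genes past the threshold ran over the alternatives from 0 to 421 in 1b+/- mice (0 in the report), 0 to 5541 in 1b-/- mice (531), 205 to 2899 per allele (1648) and 2867 to 4983 for the difference (4071). Of the members' 640 fitted values under an alternative, 563 kept direction and side of the threshold. The causes were not tested. No paired analysis was possible because the replicate numbers follow accession order and pair no mice.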
